A study of Enchytraeus crypticus with 9 samples.

Results

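The 200 probes that shone brightest on arrays from unexposed cocoons of the potworm Enchytraeus crypticus, a small white soil oligochaete, are described here. They were the 200 of 43750 probes (0.457%) with the highest mean level over the 3 control arrays. A level is the processed signal on the log2 scale, taken relative to the 75th percentile of its array, so that 0 is the brightness of that percentile. The choice used the control levels, so these levels, and every difference from control, are descriptions without a test. Differences between the 2 cadmium doses come from arrays that took no part in the choice and were tested, although the limma fit takes its estimate of the spread from all 9 arrays, controls included.

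Each of the 9 samples was an extract of 300 whole cocoons, 1 to 2 days old after laying. Control cocoons were kept for 1 day in un-spiked LUFA 2.2 soil, a natural standard soil, and the other groups for 1 day in the same soil with 5 or 16 mg Cd/kg added. There were 3 samples per group, which the series describes as biological replicates, and each was hybridised to an array of its own with a single dye, Cy3. A cocoon holds egg and embryo tissue together, and in a whole extract fewer cells of a type and less RNA per cell cannot be told apart.

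In animal embryos a small set of highly expressed genes usually carries a large part of the messenger RNA. Genes for ribosomal proteins, translation factors and the cytoskeleton are common among them, and some of the RNA is laid down by the mother before the embryo's own genes are switched on. Cadmium is a toxic metal that binds thiol groups and is held in animal cells by metallothioneins and glutathione. The files do not pair the probe identifiers with gene names, so which of the 200 belong to such genes is not given here, and no probe sequence was at hand to print. A probe's brightness depends on its own sequence as well as on the amount of its transcript. The label of most abundant transcripts could therefore not be checked against gene identity, and the 200 are called bright probes below.

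The 200 bright probes comprised 105 named as contigs, which are assembled sequences, and 95 named like single sequencing reads. Contigs made up 52.5% of them, beside 53% of all 43750 probes on the array (23177 contigs). Within the 200 the names were not evenly spread: 8 of the 10 brightest and 35 of the 50 brightest (70%) were contigs, against 70 of the 150 at ranks 51 to 200 (46.7%). Every bright probe was well above background on all 9 arrays, none was saturated on any array, and 1 spot, on 16 mg array 3, was marked non-uniform and left out of the fits. All 200 entered the test over 25909 probes. Whether several probes measure a single transcript is not given by the identifiers.

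Before the results, 1 array has to be set apart. The first 5 mg array lay alone on its slide and, like control arrays 1 and 2, alone in its scan session. Across the 200 bright probes its levels ranked less like those of the 8 other arrays (Spearman rho 0.447 to 0.769) than most other pairs of arrays did (28 pairs, 0.581 to 0.916), a description over probes that share arrays and scaling. Results that rest on it are given array by array or also without it. Probes well above background numbered 26173 to 29481 in controls, 19614 to 23287 at 5 mg and 22361 to 27239 at 16 mg, and with 3 arrays a group the precision of every value is limited.

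In control cocoons the 200 bright probes held 36.1 ± 1.22% of the summed processed signal (SD, n = 3), and the share after cadmium lay close to it, with a mean of 36.5 ± 2.78% for the lower dose and 34.9 ± 3.27% for the higher (SD, n = 3 each). Control arrays 1 to 3 had shares of 37.4%, 34.9% and 36.0%. Those with 5 mg Cd/kg had 39.7%, 35.0% and 34.9%. Those with 16 mg Cd/kg had 38.6%, 32.5% and 33.5%, and the 3 groups overlapped. Without 5 mg array 1, the mean at that dose was 34.9%. Between the doses the share differed by -1.60 percentage points (16 mg minus 5 mg), less than either dose's own spread (two-sided exact permutation test, p = 0.5, adjusted over 3 measures 0.75, where 3 against 3 allows no p below 0.1). A share needs no scaling between arrays. The summed signal itself ranged from 1.90e+07 to 3.52e+07 units over the 9 arrays.

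How that signal was divided among the 200 differed more. The 10 brightest probes held 6.82%, 5.85% and 6.94% of the signal in controls. Their share was 10.1%, 6.26% and 5.43% with 5 mg Cd/kg. With 16 mg Cd/kg it was 6.93%, 4.30% and 4.96%. The first 5 mg array thus stood alone above all others, while 5 mg array 3 and 2 of the 3 arrays at 16 mg lay below every control. Probes of rank 11 to 50 held 11.1 ± 0.353% in controls, 11.9 ± 1.03% after 5 mg and 11.2 ± 1.01% after 16 mg (SD, n = 3 each). The 150 probes of rank 51 to 200 held 17.9% to 19.1% in controls, 16.5% to 18.2% at 5 mg and 17.6% to 19.4% at 16 mg Cd/kg.

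Contig-named probes took a larger part of the bright signal after cadmium than in controls. Of the signal of the 200, contigs held 57.6%, 58.7% and 57.8% in controls. Their part was 74.7%, 59.0% and 62.5% with 5 mg Cd/kg, then 61.9%, 61.7% and 60.8% with 16 mg. All 6 cadmium arrays lay above all 3 controls, by a narrow margin on 5 mg array 2. The means were 58.0 ± 0.591%, 65.4 ± 8.24% and 61.5 ± 0.606% (SD, n = 3 each) in this order. As part of all signal on the array, read-named bright probes held 15.2 ± 0.714% in controls, 12.5 ± 2.20% after 5 mg and 13.4 ± 1.16% after 16 mg, and contig-named ones 21.0 ± 0.518%, 24.0 ± 4.92% and 21.5 ± 2.13% (SD, n = 3 each).

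The levels of the 200 spanned a wide range. The mean control level ran from 11.37 for the brightest probe to 7.97 for the last, a 10.6-fold difference in brightness, and the last still shone 251 times as bright as the 75th percentile. The median level of the 200 was 8.71, 8.60 and 8.73 in controls. It was 9.28, 9.07 and 9.17 with 5 mg Cd/kg, then 9.41, 9.18 and 8.85 with 16 mg. On this scale every cadmium array lay above every control, but the median difference of the 200 from control depended on the scaling, as given below. Between the doses the mean of the array medians differed by -0.03 (16 mg minus 5 mg; exact permutation test, two-sided, p = 1, the same after adjustment over 3 measures).

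Control arrays agreed closely on the bright probes, and the cadmium arrays less so. The median SD of a bright probe was 0.13 in controls, 0.58 for 5 mg and 0.35 for 16 mg, beside 0.20, 0.69 and 0.38 over all 25909 tested probes and 0.16, 0.74 and 0.30 for the next 800 probes in rank. An SD above 1 was found for 1 of the 200 in controls, for 45 at 5 mg and for 2 at 16 mg. Without 5 mg array 1 the median SD at that dose was 0.21 for the 200, over 2 arrays, and 0.46 for all tested probes, and 7 of the 200 had an SD above 1.

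Most bright probes stayed among the brightest after cadmium. By group mean, 153 of the 200 remained among the 200 brightest at 5 mg Cd/kg (91 contigs and 74 read-named probes without 5 mg array 1) and 168 at 16 mg. Array by array, 190, 189 and 183 of them were in the array's own 200 brightest in controls, 120, 155 and 162 at 5 mg, and 166, 152 and 175 at 16 mg. The controls had to score high here, since they chose the 200. Between the doses the counts overlapped (145.7 ± 22.5 at 5 mg and 164.3 ± 11.6 at 16 mg, SD, n = 3 each; exact permutation test, two-sided, p = 0.3, adjusted over 3 measures 0.75). Of the 10 brightest in controls, 9 were still among the 10 brightest at 5 mg and 8 at 16 mg.

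Those that left the 200 brightest were mostly read-named, and those that entered were mostly contigs. At 5 mg Cd/kg, 35 of the 47 that left were read-named and 40 of the 47 that entered were contigs. At 16 mg the counts were 21 of 32 and 23 of 32. For comparison, contigs made up 46.7% of the probes at ranks 51 to 200 and 53% of all probes on the array. The contig share of the probes just outside the 200, from which most entrants came, is not given here. Nor are the entrants without 5 mg array 1, so nothing is read from the names of the entrants. By kind, 93 of the 105 contigs and 60 of the 95 read-named probes stayed at 5 mg. Without 5 mg array 1 these were 91 and 74. Most moves were short: 34 of 47 and 27 of 32 fell no further than rank 400, and 42 of 47 and 30 of 32 entered from no lower than control rank 400. The lowest rank reached by a bright probe was 3931 at 5 mg and 883 at 16 mg.

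The 200 were next set against control cocoons probe by probe. At 5 mg Cd/kg their median log2 difference was 0.44, a 1.36-fold higher level, with 140 fitted higher (70%) and 60 lower, while 42.7% of all tested probes were fitted higher and the median of all 25909 tested probes was -0.25. Of the scales tried, this direction holds for the 75th percentile alone: the median of the 200 was -0.12 with arrays scaled on the Agilent spike-in RNA, -0.076 scaled on the total signal, and -0.13 with normexp and quantile normalization. The median of all tested probes was then -0.81, -0.77 and -0.01. So the 200 lay above the median of all probes on the 75th percentile, spike-in and total signal scales, and below it after quantile normalization. The first 3 each subtract a single value per array and move all probes alike. They cannot differ in this, and count as a single result. Quantile normalization gives every array the same values in order of rank. The 200 were chosen as the brightest in controls, so as a set they had little room to rise on that scale. Nothing is read from the sign there. On the 75th percentile scale the median of the 200 was 0.39 within slide 1, 0.49 within slide 2 and 0.40 without 5 mg array 1, where 168 of the 200 were higher. Each slide value rests on 1 cadmium array, against 2 controls on slide 1 and 1 on slide 2. The value without 5 mg array 1 uses the same 2 cadmium arrays, so these are not separate checks.

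At 16 mg Cd/kg the median log2 difference of the 200 from control was again 0.44 (1.35-fold), with 173 fitted higher and 27 lower, where 47.7% of all tested probes were fitted higher with a median of -0.07. On the other scales it was 0.16 (spike-ins), 0.0034 (total signal) and -0.028 (quantile), where all tested probes had medians of -0.34, -0.50 and -0.01. Within slides it was 0.68 on slide 1 (1 cadmium array, 2 controls) and 0.34 on slide 2 (2 cadmium arrays, 1 control). Both doses were set against the same 3 controls, so their values are not separate evidence. When the 200 were chosen from only 2 control arrays, their median level on the control array left out differed from the other 2 by 0.04, -0.11 and 0.05.

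Counting arrays gave a similar picture. At 5 mg Cd/kg all 3 cadmium arrays lay above all 3 controls for 78 of the 200, against 22.0% of all tested probes, and below all 3 for 12, against 20.8%. At 16 mg the counts were 101, against 28.1% of all tested probes, and 1, against 30.4%. Of the probes fully above control, 58 were so at both doses, which is 74.4% of the 78 and 57.4% of the 101. The doses share their controls and the matching share of all tested probes is not given here, so nothing is read from this overlap. The counts depended on the scale. On spike-ins 4 lay above and 12 below at 5 mg, against 6.99% and 42.8% of all tested probes, and 11 above and 15 below at 16 mg, against 7.90% and 34.9%. On total signal there were 27 above and 39 below at 5 mg, against 10.8% and 41.6%, and 36 above and 25 below at 16 mg, against 11.3% and 46.2%. The single probe fully below control at 16 mg was contig24209. With 1 array left out the count stayed at 1 for 16 mg array 2, and became 13 for 16 mg array 3, 6 for 16 mg array 1 or control array 2, and 2 for control array 1 or 3, against 32.4% to 37.7% of all tested probes.

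Fitted over all probes and all 9 arrays with limma, 4 of the 200 passed an adjusted p of 0.05 against control at 5 mg Cd/kg, all 4 higher, where 14.5% of all tested probes passed, 8.95% higher and 5.55% lower. The control arrays entered both the choice and this contrast, so nothing is read from the count. The 4, named after their values were seen, were contig10097, contig12401, contig26003 and GYUW2K401CA3QG. With any 1 control or 5 mg array 3 left out the count was 0, where 0% of all tested probes passed. It was 0 without 16 mg array 1 (all tested probes 6.25%) and 2 without 16 mg array 2 (12.8%) or 3 (11.3%). Without 5 mg array 1 it was 8, and without 5 mg array 2 it was 42. Of all tested probes 35.5% passed beside the 8 and 31.3% beside the 42, more than the 4% and 21% of the 200. At 16 mg Cd/kg 0 of the 200 passed in limma, and 0% of all tested probes did. At an unadjusted p under 0.05 there were 20 of the 200 (10%) and 28.1% of all tested probes. Without 5 mg array 1 the count of the 200 became 12 (6%), where 18.0% of all tested probes passed. With only the control and 16 mg arrays in the fit it became 51 (25.5%), of which 49 were higher, where 42.6% of all tested probes passed.

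The difference from control varied with the rank of a probe in control brightness. At 5 mg Cd/kg the median difference from control was 0.70 for the 10 brightest probes, 0.67 for rank 11 to 50, 0.38 for rank 51 to 200 and 0.22 for the next 800. It was 0.47 for the 4000 after those, 0.01 for the 4998 tested probes that followed and -0.41 for the 9983 tested after that. The first 3 of these medians without 5 mg array 1 were 0.46, 0.50 and 0.34. For the 200 together the sign at 5 mg turned on the 3 other scales tried. At 16 mg Cd/kg the 10 brightest had the smaller median, 0.16, against 0.49, 0.45, 0.46 and 0.51 in the next 4 steps, then 0.21 and -0.36. The median of the 200 at 16 mg was thus near those of the next 800 and the 4000 after them, and at both doses the medians were lower further down.

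Contig-named and read-named bright probes differed in their medians on most cadmium arrays. Over 5 mg arrays 1 to 3 the median of the 105 contigs relative to the control mean was 1.19, 0.37 and 0.60, and that of the 95 read-named probes was -0.55, 0.44 and 0.18. At 16 mg Cd/kg the contigs stood at 0.81, 0.56 and 0.30 and the read-named probes at 0.65, 0.23 and 0.05. The contig median was thus the higher on 5 of the 6 cadmium arrays, by 0.16 to 1.74, and the lower by 0.07 on 5 mg array 2. This gap is a difference within each array and is unchanged by any scaling that subtracts a single value per array. Quantile normalization is not of that kind, and the gap is not given here on that scale. The mean gap was 0.70 ± 0.94 for the lower dose and 0.25 ± 0.09 for the higher (SD, n = 3 each).

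Over all tested probes the gap had the opposite sign on most arrays. The median of the 13833 tested contigs minus that of the 12076 tested read-named probes was 0.06, -0.57 and -0.88 with 5 mg Cd/kg. With 16 mg it was -0.42, -0.79 and -0.43. On each of the 6 cadmium arrays it lay below the gap among the 200. Contigs were 70% of the 50 brightest, so name and rank were mixed among the 200. The gap is not given here for the next 800 probes. In the fit at 5 mg Cd/kg, 92 of the 105 bright contigs (87.6%) were fitted higher than control, against 48 of the 95 read-named ones (50.5%). These became 96 and 72 without 5 mg array 1. At 16 mg the counts were 97 (92.4%) and 76 (80.0%). Among all tested contigs 36.4% were fitted higher at 5 mg and 37.6% at 16 mg, and among read-named probes 6044 of 12076 and 59.2%.

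The 12 bright probes fully below control at 5 mg Cd/kg were 11 read-named probes and 1 contig, of control rank 37 to 192. Their log2 differences from control ranged from -1.73 to -0.55, and for all 12 the lowest of the 9 arrays was 5 mg array 1. At 16 mg Cd/kg all 12 were again fitted below control, by -0.89 to -0.18. The 78 fully above control at 5 mg had differences of 0.31 to 1.41 and comprised 51 contigs, and for 58 of them 5 mg array 1 was the highest 5 mg array. Of the 101 fully above control at 16 mg, 65 were contigs, with differences of 0.21 to 1.26. Without 5 mg array 1 the counts at 5 mg were 113 above and 13 below, against 29.1% and 36.2% of all tested probes.

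Single probes show what lies behind these counts. The brightest in control cocoons, contig07432, had levels of 11.51, 11.17 and 11.43 in controls, 12.58, 11.99 and 11.37 at 5 mg, and 12.11, 11.34 and 11.08 at 16 mg. It held 0.775% to 0.943% of all signal in controls, 0.639% to 1.23% at 5 mg and 0.600% to 0.929% at 16 mg. Its groups overlapped, and the fitted differences from control were 0.61 and 0.14 (SE 0.40 each). Next in rank, contig09075, contig03151 and contig14755, at ranks 2, 3 and 5, differed from control by 0.65, 0.76 and 0.81 at 5 mg and by 0.18, 0.14 and 0.32 at 16 mg (SE 0.37 to 0.40). Each of these 4 contigs was highest on 5 mg array 1 and spanned at most 1.63 on the log2 scale over the 9 arrays.

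The fourth brightest, contig07924, behaved differently. Its levels were 11.14, 10.39 and 11.39 in controls, 12.40, 8.37 and 9.12 at 5 mg, and 11.87, 8.09 and 10.74 at 16 mg. On both doses array 1 lay above every control, and the other arrays lay among the controls (16 mg array 3) or below them (the other 3). The range over the 9 arrays was 19.9-fold, and no group separated from another. The fitted differences from control were -1.01 and -0.74, each with an SE of 1.08.

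At the edge of the 200, the last probe inside was GYUW2K401CA3QG, with a mean control level of 7.97 ± 0.17, and the first outside was GYUW2K401CB3KK, at 7.96 ± 0.28 (SD, n = 3 each). A gap of 0.01 separated them, below the SD of either. Their levels after cadmium differed. The probe inside stood at 9.09, 8.82 and 9.23 at 5 mg and at 9.17, 9.24 and 8.77 at 16 mg, above its controls on all 6 arrays. The probe outside stood at 2.88, 6.78 and 6.47 at 5 mg and at 6.56, 6.31 and 7.82 at 16 mg, with only 16 mg array 3 within its control range of 7.65 to 8.18.

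The bright probes with the highest fitted difference from control at 5 mg Cd/kg were contig16197 and contig10097. The first had levels of 7.97, 8.09 and 7.96 in controls, 10.35, 8.53 and 9.38 at 5 mg, and 9.34, 9.37 and 8.76 at 16 mg. Every cadmium array lay above every control, with log2 differences of 1.41 and 1.14 (SE 0.44 each, 2.66- and 2.21-fold). For contig10097 the levels were 8.25, 8.21 and 7.97, then 10.03, 9.27 and 9.19, then 9.62, 9.75 and 8.85. Its groups did not overlap with control either, and the differences were 1.35 and 1.26 (SE 0.36 each). This probe and contig02851 had the highest differences at 16 mg. For contig02851 the levels were 8.05, 8.60 and 7.97 in controls, 9.99, 8.56 and 9.26 at 5 mg, where array 2 overlapped the controls, and 10.18, 9.34 and 8.87 at 16 mg, a difference of 1.26 (SE 0.45).

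The lowest fitted differences from control rested on probes that varied widely. GYUW2K402HZ4GY stood at 10.48, 9.97 and 5.33 in controls, at -0.23, 7.90 and 2.45 at 5 mg, and at 7.35, 7.37 and 5.18 at 16 mg. Its groups overlapped because of control array 3, and its differences were -5.22 and -1.96 (SE 1.87 each). GYUW2K402JGWRU stood at 9.55, 8.37 and 8.63 in controls and at 3.81, 9.17 and 8.38 at 5 mg, so that the fitted -1.73 (SE 1.12) came from array 1, and without that array it was -0.07. At 16 mg the second lowest was contig24209, at 8.89, 7.64 and 8.66 in controls and 7.55, 5.95 and 7.28 at 16 mg, a difference of -1.47 (SE 0.56) with no overlap. At 5 mg it stood at 7.60, 7.49 and 9.05, with 2 arrays below every control and 1 above.

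No bright probe passed the test between the doses. Of the 200, 0 passed an adjusted p of 0.05 between 16 and 5 mg Cd/kg in limma, with 0 at an unadjusted p under 0.05, a smallest adjusted p of 0.854, and 0.104% of all tested probes passing. With only the 5 and 16 mg arrays in the fit, 0 of the 200 and 0 of all tested probes passed. The median log2 difference (16 mg minus 5 mg) was 0.01, with 109 fitted higher and 91 lower, beside 53.0% higher and a median of 0.03 among all tested probes. Only 3 of the 200 had every 16 mg array above every 5 mg array, against 2.77% of all tested probes, and 0 had every array below, against 4.42%. The 3, named after their values were seen, were GYUW2K402JOSJ3, contig17014 and GYUW2K402HXZMT, with differences of 0.47, 0.47 and 0.74. Without an array the counts above and below were 6 and 2 (5 mg array 1), 12 and 15 (5 mg array 2), 3 and 11 (5 mg array 3), 4 and 26 (16 mg array 1), 13 and 1 (16 mg array 2), or 19 and 0 (16 mg array 3). Over these 6 settings 5.45% to 12.3% of all tested probes lay above and 5.98% to 13.7% below. Most of the counts were under these shares, while the 26 (13%) stood beside 7.40%, the 19 (9.5%) beside 5.76% and the 13 (6.5%) beside 5.64%.

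The fitted difference between the doses (16 mg minus 5 mg) was listed by rank and name as well, with no test of the groups. Its median was -0.48 for the 10 brightest, of which 9 were fitted lower at 16 mg, -0.16 for rank 11 to 50 and 0.13 for rank 51 to 200. Contigs had a median of -0.11, with 68 of 105 lower at 16 mg, and read-named probes 0.23, with 72 of 95 higher. Without 5 mg array 1 the medians of the 3 steps were -0.21, -0.043 and 0.05, and the names changed sides, with 0.07 for contigs and -0.0092 for read-named probes. Medians within slides pointed opposite ways for the 200 as a whole, at 0.27 on slide 1 (1 array per dose) and -0.10 on slide 2 (2 arrays at 16 mg, 1 at 5 mg). The highest fitted differences were those of GYUW2K402HZ4GY, at 3.26 (SE 1.87), and GYUW2K402FOGVW, at 1.22 (SE 0.76). The latter stood at 5.09, 8.72 and 8.26 at 5 mg and at 8.83, 8.54 and 8.37 at 16 mg, beside controls of 8.28 to 8.41, and only 5 mg array 1 was low. Lowest were contig08319, at -1.27 (SE 0.70), and contig24209, at -1.12 (SE 0.56). For contig08319 the levels were 10.40, 7.65 and 9.29 at 5 mg and 8.56, 6.73 and 8.24 at 16 mg, with controls at 9.68, 8.48 and 9.54, and the doses overlapped. All 4 had a limma adjusted p of 0.854 between the doses.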

How the data were processed

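Per the labels' protocols, total RNA of 300 cocoons per sample was amplified, labelled with Cy3 and hybridised to 1-colour Agilent arrays with spike-in RNA. Per the file headers, the deposited intensity values came from Agilent's Feature Extraction software, version 10.7.3.1, background-subtracted on each array with no scaling between arrays. The deposited value table, with the authors' intensity values, differed from them by at most 0.497%, so it holds the same linear values, rounded and not centred, and was not used further. The deposited flags, per the file headers, mark spots as well above background, non-uniform, outlying or saturated.

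Each processed signal was taken to log2 and the 75th percentile over the array's 43750 probes subtracted. The 1417 control features were left out, and 63 spots marked as non-uniform or as outliers were left out of the fits but not of the choice of members or the shares. A probe was tested if some group had it well above background on all its arrays, which held for 25909. They were fitted in limma 3.58.1 (R 4.3.3) with lmFit and eBayes over 9 arrays in 3 groups, with Benjamini-Hochberg adjustment over all tested probes at 0.05, two-sided, tested on simulated data. The headers give 3 slides and 5 scan sessions. Slide 3 carried 5 mg array 1 alone, slide 1 carried 5 mg array 2, 16 mg array 1 and controls 1 and 3, and slide 2 the others. Scan session 1 held control array 3, 5 mg array 2 and 16 mg array 1. Session 2 held 5 mg array 3 and 16 mg arrays 2 and 3. The remaining arrays had a session each. Only control array 3 thus shared a session with cadmium arrays. Session and cadmium cannot be fully told apart in any difference from control.

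The members, lists and tests were chosen with earlier results of these data known. Named probes were the 5 brightest, those on either side of the limit, and the 2 highest and 2 lowest in each comparison. Since no names were given, the gene lists drawn up were not tested. Any p-value refers to variation among arrays, each with a cocoon pool of its own. That variation also holds differences of labelling, hybridisation, slide and scan session, which cannot be told apart from those among pools.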

Additional observations from a re-analysis of the deposited data

How the results depend on the processing

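Of 23 alternatives, 19 left the median against control within the spread between replicates at each dose, and 21 did so between the doses. Some of these could not move it: leaving out an array of the group not compared, or blocking on replicate number, returns the same median. Scaling turned the direction against control on 3 scales at 5 mg Cd/kg. At 16 mg it turned on the quantile scale alone, where the 200 had little room to rise. At 5 mg Cd/kg the 0.44 became -0.12 with spike-in scaling, -0.076 with total signal scaling (chosen after seeing the data) and -0.13 with normexp (offset 50) and quantile, and 0.63 when members were chosen by the mean of all 9 arrays. At 16 mg it became 0.16, 0.0034 and -0.028 on these scales and 0.68 within slide 1. Between the doses it became 0.31 on spike-ins and 0.27 within slide 1. Leaving out 1 array gave 0.40 to 0.49, 0.29 to 0.53 and -0.13 to 0.14 in this order. Of the 200, 0 passed between the doses in all 25 alternatives. For contig07432 the -0.47 between the doses became 0.11 with normexp and quantile and 0.11 with array weights, and for contig07924 the 0.27 ranged from -0.55 to 1.49 with 1 array left out, at -0.53 for 5 mg array 2, -0.15 for 5 mg array 3 and -0.55 for 16 mg array 1. The share of signal was 25.7%, 26.3% and 24.3% for the 100 brightest probes and 48.9%, 48.6% and 47.9% for the 400 brightest (control, 5 and 16 mg), and without 1 array 35.5% to 36.7%, 34.9% to 37.3% and 33.0% to 36.1%. Members passing at 5 mg numbered 4 (all tested probes 14.5%), against 0 with only the 2 groups (4.80%) or no filter on dim probes (0%). They numbered 9 with slide as a block (all tested probes 32.4%) and 61 or 30.5% with array weights (62.5%). On spike-ins there were 5 (23.9%) and on total signal 7 (30.3%), all lower on these 2 scales. At 16 mg array weights gave 71 or 35.5% in place of 0, where 42.8% of all tested probes passed. The file held no mean spot signal, so median spot signals were used for normexp. The replicate number as a block left the medians at 0.44, 0.44 and 0.01, as it must where each number occurs once per group. The members passing were then 1 (5 mg, all tested probes 7.33%), 0 and 0 (all tested probes 0% in both). Same-numbered arrays of different groups deviated together at r of -0.10 to 0.33 (2 of 9 pairs above 0.1), so the numbers were not taken as pairs. The causes of these changes were not tested.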

Other observations

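GYUW2K402HZ4GY had the widest control spread of the 200 bright probes, an SD of 2.84 against 0.72 for the next. Its control arrays spanned 35.5-fold in brightness, since control array 3 stood at 5.33 beside 10.48 and 9.97, and its range over the 9 arrays was 10.72 on the log2 scale. None of its spots was marked non-uniform, and it was well above background on all 9 arrays. It held 0.462% of all signal on control array 1 and 0.013% on control array 3, both on slide 1. Leaving it out, chosen after seeing the data, moved the median difference of the others from 0.44 to 0.46 at 5 mg Cd/kg, and left 0.44 at 16 mg. The tested probe whose levels followed it most closely over the 9 arrays was GYUW2K401BC22Z (Pearson r = 0.979, a description over arrays of 3 groups, picked as the highest of all tested probes). That probe ranked 9947 in controls and ran from -0.67 to 0.55.

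The 200 brightest probes of each array, chosen on that array itself, held 35.0% to 37.5% of its signal in controls, 36.6% to 46.3% at 5 mg Cd/kg and 34.2% to 40.1% at 16 mg. The highest value, 46.3%, was that of 5 mg array 1, on which the 200 chosen in controls held 39.7%.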
